A study of Mus musculus with 8 samples.

Results

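Cytosolic ribosomal protein (RP) genes encode the proteins of the small (Rps) and large (Rpl) subunits of the ribosome, which translates messenger RNA in the cytoplasm. Their products are needed in near-equal amounts, and their promoters lie in CpG-rich DNA and often start transcription in a run of pyrimidines that makes the messenger RNA sensitive to growth signals. In bone marrow they are known from Diamond-Blackfan anaemia, in which loss of 1 copy of an RP gene impairs red cell production, and from the p53 response to free Rpl5 and Rpl11.

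The RP genes were taken as protein-coding genes of GENCODE vM21 with an Rpl or Rps symbol followed by a digit, or Rplp0, Rplp1, Rplp2 or Rpsa, without the Rps6k kinases and symbols containing -ps. This gave 86 of 21951 protein-coding genes. The peak tables hold 19 autosomes, so 82 genes were analysed, and the 4 X-linked genes (Rpl10, Rpl36a, Rpl39 and Rps4x) were not analysed here. Of the 82 genes, 40 encode large subunit proteins, 30 small subunit proteins and 3 the P-stalk, which recruits elongation factors, and these 73 are termed core genes here. A further 8 are paralogs of such genes, and Rps19bp1 encodes a binding partner of Rps19. The choice by symbol leaves out Fau and Rack1, which also encode ribosomal proteins.

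Chromatin accessibility was measured by ATAC-seq, in which the Tn5 transposase inserts adapters into open DNA. Progenitors of C57BL/6 mouse bone marrow were sorted from Lin- Sca-1+ c-Kit+ (LSK) cells, MPP3 as CD150- CD48+ and MPP4 as CD150- CD48+ Flt3+. Wild-type mice were labelled Ebf1fl/fl Tie2Cre +/+ and Ebf1-KO mice Ebf1fl/fl Tie2Cre +/cre, so that by these labels both carry the floxed Ebf1 alleles, whereas the design text names controls with unfloxed Ebf1 and the Tie2Cre driver. The methods allow littermates of either kind, floxed or carrying Cre. Tie2 drives Cre in endothelium as well as in hematopoietic stem cells, so deletion is not limited to the MPP stage. Each genotype and cell type had 2 libraries of 5000 cells, 8 in all, from mice of 8 or 9 weeks, 7 female and 1 male, the male in MPP4 wild type.

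The values are the authors' mean log2 CPM (counts of fragments scaled to library size) of each peak over the 4 libraries of a cell type, both genotypes together. They carry no value per library, so no difference given here could be set against the spread between replicates, and no genotype comparison is made. The depth of each library and the level of Ebf1 per library were not analysed. A level per kb is log2 CPM minus log2 of the peak length in kb, which allows peaks of different length to be compared. In bulk cells, a larger share of cells with an open promoter and a more open promoter in each cell cannot be told apart. A TSS peak is a peak with its center within 1 kb of any transcript start of the gene.

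Markers of the sorted cells were looked up first. Flt3, the receptor that defines MPP4, had a TSS peak at 6.99 log2 CPM per kb in MPP3 and 7.55 in MPP4 cells. Of 9 genes of multipotent progenitors, 8 had a TSS peak in MPP3 (not Ly6a, which encodes Sca-1) and 9 in MPP4 cells. Their levels ran from 3.86 to 6.85 in MPP3 and from 3.82 to 7.16 in MPP4 cells, with Cd48, which the sort selects for, at 3.86 and 3.96. Slamf1, which encodes the CD150 absent from the sorted cells, had peaks at 3.71 and 3.88. Of 8 genes of other marrow cells 3 had a peak in each cell type, at no more than 4.89, so the lowest progenitor markers were in the range of these genes. Of 4 genes of cells outside the marrow none had one.

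A TSS peak was present at all 73 core genes in both cell types. Among the 82 RP genes, 78 (95.1%) had a TSS peak in each cell type, against 67.4% of 20725 other protein-coding genes in MPP3 and 67.2% in MPP4 cells. The 4 genes without one were paralogs in both cell types: Rpl10l, Rpl39l, Rpl3l and Rps27rt. Rpl3l is known from striated muscle and Rpl10l and Rpl39l from the male germline. The other 4 paralogs had TSS peaks. Rpl36al stood at 6.77 log2 CPM per kb in MPP3 and 6.31 in MPP4 cells. Rps27l, a p53 target, stood at 6.59 and 5.95, Rpl22l1 at 5.91 and 6.30, and Rpl7l1 at 5.60 and 5.59. Paralogs were thus either without a peak or at levels within the range of the core genes.

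Because the sequence of an RP promoter is what the peaks cover, a few are printed here from RefSeq (GRCm38.p6), from 120 bases before to 20 bases from the transcript start on, 5′ to 3′ on the strand of the gene. RefSeq promoters matched 62 of the 82 genes. Capitals mark the palindromic element TCTCGCGAG, known to be bound by ZBTB33 and BANP, and the ETS core CCGGAAG, known to be bound by GABP. Both elements were marked in either orientation. Rpl10a, Rps28, Rpl26 and Rps6 show the palindrome within the printed stretch, Rps21 and Rpl37 the ETS core, and Rpl13a has neither although it had the highest level. Rps19, mutated most often in Diamond-Blackfan anaemia, shows the palindrome at its RefSeq start, which lies 221 bases from the GENCODE start.
Rpl10a, chr17:28328445-28328584, plus strand: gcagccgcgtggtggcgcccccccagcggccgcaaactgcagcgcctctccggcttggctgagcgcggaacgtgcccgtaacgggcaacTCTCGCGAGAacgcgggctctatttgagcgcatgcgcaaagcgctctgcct
Rps28, chr17:33824543-33824682, minus strand: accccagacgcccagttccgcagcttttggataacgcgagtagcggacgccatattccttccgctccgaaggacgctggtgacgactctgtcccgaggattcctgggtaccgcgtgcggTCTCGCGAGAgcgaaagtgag
Rpl26, chr11:68901446-68901585, plus strand: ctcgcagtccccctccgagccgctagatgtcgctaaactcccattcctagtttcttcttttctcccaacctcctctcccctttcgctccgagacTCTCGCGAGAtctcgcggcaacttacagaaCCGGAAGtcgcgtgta
Rps6, chr4:86857348-86857487, minus strand: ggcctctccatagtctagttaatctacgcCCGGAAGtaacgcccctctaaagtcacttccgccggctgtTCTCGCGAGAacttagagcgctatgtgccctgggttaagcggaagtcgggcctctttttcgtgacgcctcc
Rps19, chr7:24884472-24884611, plus strand: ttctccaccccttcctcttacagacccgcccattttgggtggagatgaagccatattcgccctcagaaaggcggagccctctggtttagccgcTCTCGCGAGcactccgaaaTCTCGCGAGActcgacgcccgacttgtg
Rps21, chr2:180257259-180257398, plus strand: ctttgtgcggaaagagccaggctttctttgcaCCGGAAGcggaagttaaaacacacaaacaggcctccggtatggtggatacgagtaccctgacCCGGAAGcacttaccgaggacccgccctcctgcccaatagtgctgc
Rpl37, chr15:5116493-5116632, plus strand: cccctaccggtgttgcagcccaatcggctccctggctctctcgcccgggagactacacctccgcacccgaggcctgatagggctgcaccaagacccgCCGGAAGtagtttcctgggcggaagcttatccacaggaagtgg
Rpl13a, chr7:45128726-45128865, minus strand: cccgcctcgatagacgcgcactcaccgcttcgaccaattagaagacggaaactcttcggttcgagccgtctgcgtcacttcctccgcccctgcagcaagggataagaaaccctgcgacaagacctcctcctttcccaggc
All 140 bases of each of these 8 stretches lay within the strongest TSS peak of the gene in MPP3 and in MPP4 cells.

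At the median, RP promoters had a higher level than other promoters with a peak, and they spread over a narrower range. The strongest TSS peak, taken as the one with the highest log2 CPM of a gene, had a median of 6.08 log2 CPM per kb over the 73 core genes in MPP3 cells, with an SD across genes of 0.72. Other protein-coding genes with a TSS peak had a median of 5.58 and an SD of 1.18, so the medians differed by 1.41-fold. In MPP4 cells the core genes had a median of 5.94 and an SD of 0.67, and other genes 5.51 and 1.15, which is 1.34-fold. In MPP3 cells 61 core genes (83.6%) lay above the median of other genes, and 57 (78.1%) did in MPP4 cells. No core gene lay below the lowest decile of other genes, at 3.93 in MPP3 and 3.85 in MPP4 cells. The core genes thus filled the middle and upper part of the distribution, as the plot of gene shares by level shows.

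**Figure D1:**
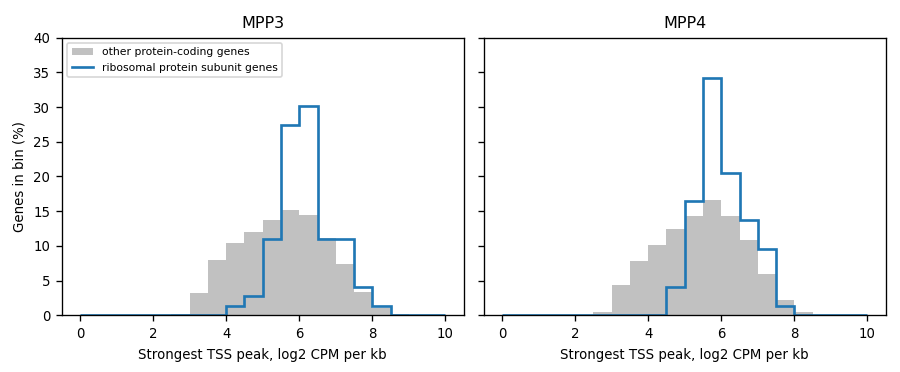
Share of genes (y axis, % in bins of 0.5) by the level of the strongest TSS peak (x axis, log2 CPM per kb) in MPP3 and MPP4 cells, for the 73 core ribosomal protein genes (blue line) and other protein-coding genes with a TSS peak (gray). The core genes center near 6.08 and 5.94, the others near 5.58 and 5.51 with a wider spread.

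Counted by peak, 90 RP TSS peaks in MPP3 cells had a median of 6.03 log2 CPM per kb against 5.17 for 20028 other TSS peaks. In MPP4 cells 97 RP peaks had a median of 5.88 against 5.15 for 20187 others. Above the median of the others lay 80 of the MPP3 peaks (88.9%) and 82 of the MPP4 peaks (84.5%). Above the upper quartile of the others lay 42 of the MPP3 peaks (46.7%) and 37 of the MPP4 peaks (38.1%). The excess was smaller at the top of the range, where 13 RP peaks in each cell type (14.4% and 13.4%) lay in the upper decile of the others. RP TSS peaks made up 0.103% of the MPP3 peaks and 0.343% of the summed CPM of the table, and 0.112% and 0.302% in MPP4 cells.

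The highest level in both cell types was at Rpl13a, a large subunit protein also known for a role in silencing inflammatory messages, with 8.00 log2 CPM per kb in MPP3 and 7.70 in MPP4 cells. Also among the 5 highest in both were Rps29 (7.53 and 7.47) and Rpl27 (7.52 and 7.28). Rpl37 was among them in MPP3 cells (7.43) and Rpl41, which encodes a very short peptide, in MPP4 cells (7.25). Rps29 and Rpl27 are Diamond-Blackfan genes. At the lower end, Rpl4 stood at 4.47 in MPP3 and 4.95 in MPP4 cells. Its strongest peak was centered at -623 bp from the start in MPP3 cells, toward the divergent gene Zwilch, and a second peak over the start had 4.82 and 4.81. Rpl6 stood at 4.93 and 4.94, nearly equal in both tables.
Also among the 5 lowest in MPP3 cells were Rpl37a (4.70), Rpl24 (5.04) and Rpl17 (5.05). In MPP4 cells Rpl17 (4.98) and Rpl5 (5.11) were among them. The tables, which were normalised separately, thus shared 4 of the 5 highest and 3 of the 5 lowest genes.

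**Figure D2:**
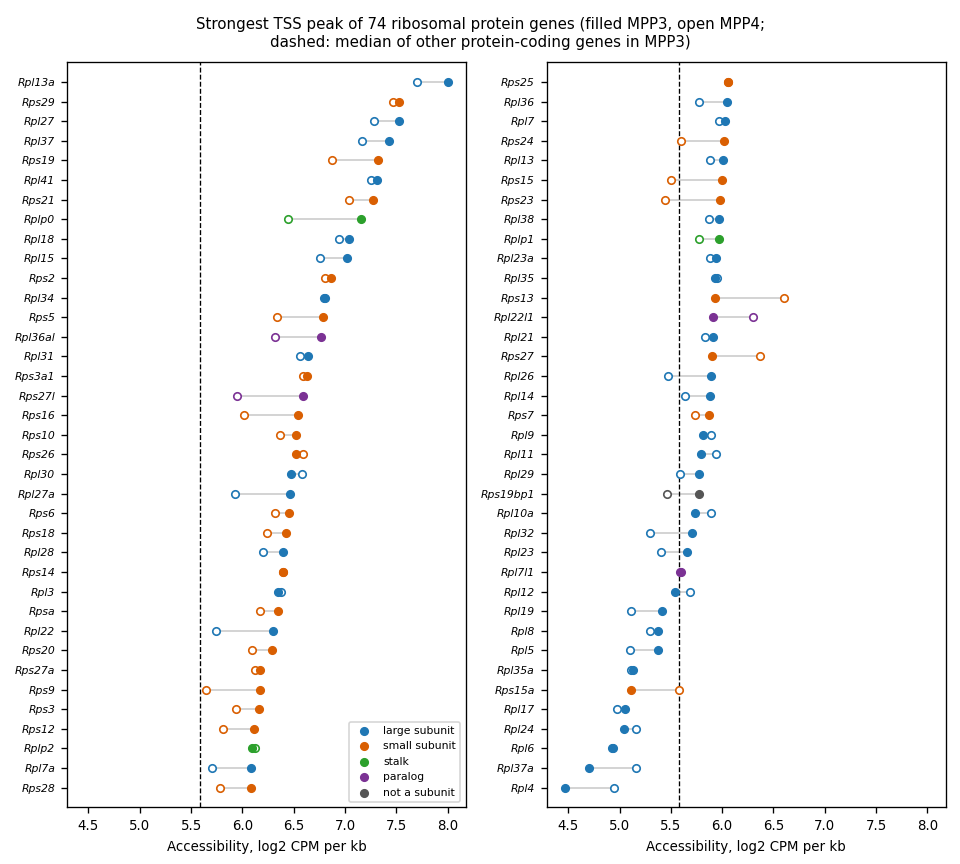
Level of the strongest TSS peak (x axis, log2 CPM per kb) of 74 of the 78 ribosomal protein genes with a TSS peak, one row per gene, filled points for MPP3 and open points for MPP4 cells, colored by gene class. The dashed line is the MPP3 median of other protein-coding genes, 5.58, and the levels run from 8.00 at Rpl13a to 4.47 at Rpl4 in MPP3 cells.

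Small and large subunit genes overlapped widely. Small subunit genes had a median of 6.23 log2 CPM per kb in MPP3 cells (range 5.11 to 7.53) and 6.15 in MPP4 cells (5.06 to 7.47). Large subunit genes had medians of 5.94 (4.47 to 8.00) and 5.87 (4.94 to 7.70). Rplp0, the scaffold of the P-stalk, had 7.15 and 6.45, above Rplp1 (5.97 and 5.78) and Rplp2 (6.10 and 6.13), which bind to it as dimers. Rps27a, whose protein is made as a fusion with ubiquitin, stood at 6.17 and 6.13.
Rpl5 and Rpl11, which form the 5S ribonucleoprotein that inhibits Mdm2, stood at 5.37 and 5.79 in MPP3 cells and at 5.11 and 5.95 in MPP4 cells. All 20 genes of the Diamond-Blackfan list had a TSS peak, with a median of 6.05 in MPP3 and 6.16 in MPP4 cells. The core medians were 6.08 and 5.94. The MPP4 median of the list falls in a gap between Rpl35 (5.95) and Rps10 (6.36). Rpl22, which is required for the development of αβ T cells, stood at 6.30 and 5.74.

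The peaks sat on the transcript start. The strongest peak covered the start of the principal transcript in 75 of 78 RP genes (96.2%) in each cell type, against 70.3% of other genes in MPP3 and 68.6% in MPP4 cells. The exceptions in MPP3 cells were Rps10, Rpl35 and Rpl4. The center lay within 100 bp of that start in 55 genes (70.5%) in MPP3 and 58 (74.4%) in MPP4 cells, against 42.7% of other genes in each. The median center was at -18 bp in MPP3 cells, upstream of the start, and the middle 50% of genes lay between -61.3 and 64.3 bp. The strongest peaks were 487 bp long at the median in MPP3 and 447 bp in MPP4 cells, against 477 and 459 bp for other genes.

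**Figure D3:**
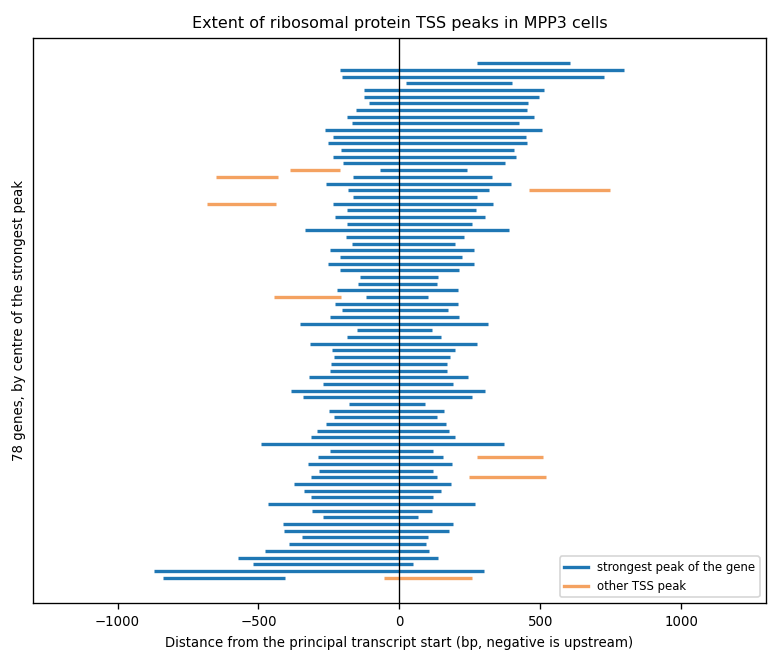
Extent of the TSS peaks of 78 ribosomal protein genes in MPP3 cells along the distance from the principal transcript start (x axis, bp, negative is upstream), one row per gene ordered by peak center. Blue bars are the strongest peak of a gene, 75 of which cover the start, and orange bars are further TSS peaks, of which 4 centered over 1300 bp away, at other starts of the gene, lie outside the axis.

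RP genes seldom had more than 1 TSS peak. In MPP3 cells 12 of 78 genes (15.4%) had at least 2, against 38.4% of other genes with a TSS peak, and in MPP4 cells 17 (21.8%) did, against 40.1%. These were Rpl3, Rpl4, Rpl7l1, Rpl18, Rpl19, Rpl32, Rpl36al, Rpl38, Rps10, Rps24 and Rps27l in both, Rplp0 in MPP3 cells, and Rpl7, Rpl22, Rpl22l1, Rpl34, Rpl36 and Rps15a in MPP4 cells. Some of these peaks belong to other starts of the gene: the second peak of Rpl18 in MPP3 cells was centered 2577 bp downstream of the principal start. The RefSeq start of Rpl18, 2614 bases from the principal start, lay in that second peak, at 6.499 log2 CPM per kb in MPP3 and 6.205 in MPP4 cells. The level used for Rpl18 here, 7.035 and 6.938, is that of the peak over the principal start. Other additional peaks are 1 region divided differently in the tables. Rpl7 had 1 peak of 1171 bp in MPP3 cells and peaks of 696 and 319 bp in MPP4 cells. Rplp0 had peaks of 442 and 236 bp in MPP3 cells and 1 of 810 bp in MPP4 cells. The peak closest inside the 1 kb limit belonged to Rps10 in both cell types, at 901 and 872 bp (log2 CPM 4.65 and 4.68). The closest outside it lay at 1044 bp from Rps18 in MPP3 (5.33) and at 1156 bp from Rpl7 in MPP4 cells (4.16).

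A protein-coding gene started on the opposite strand within 1 kb upstream of 9 RP genes. The pairs were Rps28 with Ndufa7 at 10 bp, Rpl9 with Lias at 53 bp, Rpl15 with Nkiras1 at 69 bp, Rpl36al with Mgat2 at 74 bp and Rps18 with Vps52 at 135 bp. Farther apart were Rpl7a with Med22 at 195 bp, Rpl35a with Iqcg at 263 bp, Rpl4 with Zwilch at 271 bp and Rpl12 with Lrsam1 at 304 bp. At these genes the signal of the partner cannot be told apart from that of the RP gene within a peak. At Rpl4 a separate peak lies wholly past the start of Zwilch, apart from the peak over the Rpl4 start. The 8 core genes among them had a median of 5.95 log2 CPM per kb in MPP3 and 5.74 in MPP4 cells, against 6.10 and 5.95 for the other 65.
RP introns often hold small nucleolar RNAs, which guide the modification of ribosomal RNA. By annotation 28 core genes hosted 56 of them. Hosts had a median of 6.11 in MPP3 and 5.93 in MPP4 cells and the other 45 core genes 6.05 and 5.95, differences that are small beside the middle 50% of the hosts in MPP3 cells, from 5.70 to 6.49. The genome also carries many pseudogenes of these genes. Of 266 annotated on the autosomes, 3 lay under a peak in MPP3 and 4 in MPP4 cells. By the definition used for the genes, 14 (5.26%) had a TSS peak in each cell type. Per the methods, alignments were filtered by mapping quality. Reads from near-identical copies can be lost in this way. A missing peak at a pseudogene, or at the paralog Rps27rt, may thus not mean closed DNA, which was not tested.

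The promoter sequence differed from that of other genes in a few motifs. Promoters were read from 250 bases before to 50 bases from the principal start on, on both strands, and compared with all 20807 autosomal protein-coding genes and with the 14049 that had a TSS peak in MPP3 cells. The palindrome TCTCGCGAG was found in 9 of 82 RP promoters (11.0%, 95% Wilson interval 5.88 to 19.6), in 0.860% of all promoters and in 1.21% of those with a peak. All were core genes, among them Rpl4, Rpl10a, Rpl17, Rpl26, Rpl27a, Rps6 and Rps28, with the first match at a median position of -34 from the start. The ETS core CCGGAAG was found in 26 (31.7%, 22.7 to 42.4), against 11.4% and 15.8%. The YY1 element AANATGGCG was found in 8 (9.76%, 5.03 to 18.1), against 3.14% and 4.42%. Intervals cover counting error only. All these counts were made at GENCODE principal starts. Near their RefSeq starts, 153 and 221 bases away, Rpl12 and Rps19 held the palindrome without being counted. Rps25 and Rpl41 held the ETS core near RefSeq starts 575 and 137 bases away without being counted. Rps26, Rpl27a, Rps2 and Rpsa were counted but lacked the ETS core in the stretch at their RefSeq starts. Rpl4 was counted for the palindrome and lacked it there. That stretch is shorter than the promoter window, and Rps2 has the same RefSeq and GENCODE start. A match can thus be lost without a change of start. Motif shares at RefSeq starts were not computed.
Other elements were near or below their shares elsewhere. The GC box GGGCGG was found in 50.0% of RP promoters, against 46.2% of all and 61.6% of those with a peak. The NF-Y element CCAAT was found in 29.3%, against 38.2% and 37.2%. Myc E-boxes (CACGTG) were found in 11.0%, against 7.78% and 9.68%, and the NRF1 element GCGCNTGCG in 12.2%, against 8.62% and 12.2%. No RP promoter held TATAAA starting between 45 and 15 bases before the GENCODE principal start. The shares were 2.95% of all promoters and 1.29% of those with a peak, and the Wilson interval of 0 of 82 reaches 4.47%. At its RefSeq start, 72 bases from the GENCODE start, Rpl22l1 did hold TATAAA in that window, so the absence depends on the starts used.

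**Figure D4:**
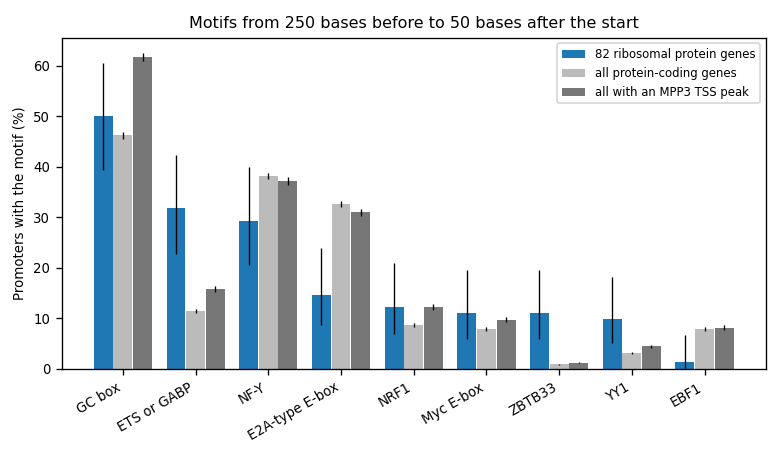
Share of promoters (y axis, %) holding each motif on either strand in the 82 ribosomal protein genes (blue), all autosomal protein-coding genes (light gray) and those with a TSS peak in MPP3 cells (dark gray). Error bars are 95% Wilson intervals, and the ZBTB33 element is at 11.0% in the ribosomal protein genes and 1.21% in promoters with a peak.

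EBF1, the factor deleted in the Ebf1-KO mice, and the E proteins with which it acts in B cell development had few matches here. The EBF1 motif TCCCNNGGG, or CCCNNGGGA on the other strand, was found at 1 RP promoter, that of Rpl12 (1.22%, 0.216 to 6.59), against 7.84% of all promoters and 8.11% of those with a peak. E-boxes of the E2A type (CAGGTG or CAGCTG) were found in 12 (14.6%, 8.57 to 23.9), against 32.6% and 30.9%. Over the whole length of the MPP3 TSS peaks, which is longer than the promoter window, 11 of 78 RP genes (14.1%) had an EBF1 match, against 19.3% of 13971 other genes, whose TSS peaks summed to a median of 615 bp a gene against 560 bp. A match is a run of letters and not a binding site.

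RP promoters had a higher median CpG ratio than both comparison sets and a lower median GC content than promoters with a peak. The ratio of observed to expected CpG had a median of 0.85 in RP promoters, 0.57 in all and 0.73 in those with a peak. GC content had a median of 55.8%, against 56.3% and 60.3%. A pyrimidine tract was sought as a C followed by 4 pyrimidines at the first base of the transcript. It was found in 9 RP genes (11.0%), against 2.30% of all, and in 14 of the 62 genes with a RefSeq promoter (22.6%) when RefSeq starts were used. Within 10 bases of the GENCODE start it was found in 37 genes (45.1%), against 31.1% of all, a share that also grew with the number of positions searched. No background share was computed for RefSeq starts.
Among core genes split at GENCODE starts, the 24 with an ETS core had a median of 6.44 log2 CPM per kb in MPP3 cells. The 49 without one had 6.02, and in MPP4 cells the medians were 6.28 and 5.88. The holders of the palindrome had 5.89 and 5.78, and the other core genes 6.09 and 5.96. Across core genes the level went with GC content, with a Spearman rho of 0.42 in MPP3 and 0.37 in MPP4 cells over 73 genes of the same libraries. Genes are not replicates, and the part of GC content in the levels was not tested.

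MPP3 and MPP4 cells shared the RP peaks. All 90 RP TSS peaks of MPP3 cells overlapped an MPP4 peak by at least 1 base, against 88.1% of other TSS peaks and 75.7% of all MPP3 peaks. In the other direction 92 of 97 (94.9%) did, against 89.0% and 76.7%. Because the 2 tables were normalised separately, levels across them are set side by side without a test. The MPP4 minus MPP3 difference in level had a median of -0.14 over the 90 shared peaks (log2, middle 50% from -0.30 to -0.002), and of -0.10 over 17647 other shared TSS peaks. Relative to all shared TSS peaks the RP median was -0.035. Level was higher in MPP4 cells at 22 RP peaks (24.4%), against 36.9% of the others. Among shared peaks with log2 CPM of 5 or more in MPP3 cells, the median difference in level was -0.184 over 45 RP peaks. Over 5265 other such peaks it was -0.178. Whole-peak log2 CPM there differed by a median of -0.21 at RP and -0.23 at other peaks. Across the 90 peaks the levels of both tables had a Pearson r of 0.93 and a Spearman rho of 0.90.

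Single genes differed more, some of them together with the peak length. Rplp0 had the largest difference toward MPP3 cells, at 7.15 in MPP3 and 6.45 log2 CPM per kb in MPP4 cells, with a peak of 442 bp in MPP3 and 810 bp in MPP4 cells. Its whole-peak log2 CPM differed the other way, by 0.17. Rps27l stood at 6.59 and 5.95, with a peak of 448 bp in MPP3 and 549 bp in MPP4 cells. Rpl22 stood at 6.30 and 5.74, with peaks of like length, 470 and 478 bp, beside a further TSS peak of 239 bp in MPP4 cells only.
In the other direction Rps13 stood at 5.93 in MPP3 and 6.60 in MPP4 cells, with peaks of 690 and 376 bp and a whole-peak difference of -0.21. Rpl4 stood at 4.47 and 4.95, on a peak that lies wholly past the start of Zwilch, while the peak over its own start had 4.82 and 4.81. Rps15a stood at 5.11 and 5.58, with 1 peak of 768 bp in MPP3 and a matched peak of 361 bp in MPP4 cells. Summing the CPM of all TSS peaks of a gene depends less on how a region is divided, but still on which peaks were found and on their length. On that scale, chosen after the peaks had been seen, the RP median was -0.19 over 78 genes and -0.16 over 13459 others, with 15 RP genes (19.2%) and 29.9% of others higher in MPP4 cells. The summed value and the level per kb had opposite signs at 17 of 78 genes. Rps15a was at 0.00 on the summed scale, Rps13 at -0.21, Rplp0 at -0.21 and Rpl22 at -0.17. The lowest was Rpl10a at -0.79, with a peak of 566 bp in MPP3 and 295 bp in MPP4 cells. The highest was Rpl36 at 0.55, with a further TSS peak of 184 bp in MPP4 cells only. The log2 CPM of the peak over the start of Rpl36 differed by 0.05.

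**Figure D5:**
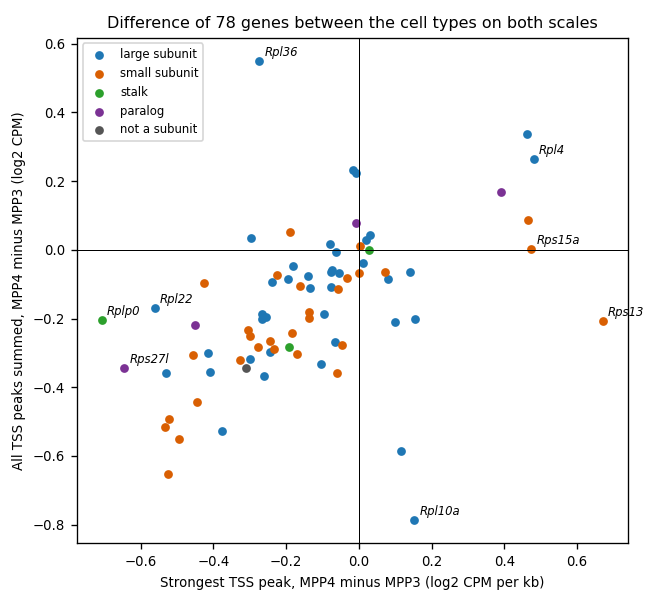
MPP4 minus MPP3 difference of the 78 ribosomal protein genes, as the level per kb of the strongest TSS peak (x axis) and as the summed CPM of all TSS peaks (y axis, log2). Most points lie in the lower left, and 17 genes, Rps13 and Rpl36 among them, have opposite signs on the 2 scales.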

How the data were processed

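Per the labels and methods, reads were trimmed with cutadapt 2.10 and aligned to mm10, fragments were filtered with deepTools, and MACS2 2.2.7.1 found peaks (q of 0.01) after replicates of a condition had been merged. Peaks of both genotypes were merged within a cell type with bedtools. Presence therefore cannot be compared between replicates or genotypes. The authors deposited, per peak, the mean log2 CPM from edgeR 3.32.0. The tables also hold log2 fold changes, F, p-values and FDR between genotypes. These are the authors' own comparison and were not used. Positions were read against GRCm38 and GENCODE vM21 with Python 3.11.15, pandas 2.3.3 and pysam 0.24.0, and checked on simulated data. Medians, counts, shares with 95% Wilson intervals and correlations are descriptions without tests. Depth per library was not analysed, so the precision of a value is unknown. Genes are named if they lack a TSS peak, have the 5 highest or lowest levels or the 3 largest differences between cell types in each direction, are paralogs, have several TSS peaks, share a promoter, or are 5S, stalk or Diamond-Blackfan genes. A few genes that this rule names are not reported here. Members, lists and motifs were chosen with earlier results of these data known.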

Additional observations from a re-analysis of the deposited data

How the results depend on the processing

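No paired analysis was possible because the values are means over libraries, which also means that no library could be left out in turn. Of 57 alternative values of 17 results, 44 stayed within the interval or 1.5-fold range of the reported value. The MPP4 minus MPP3 median, the only result that could change sign, kept it. Some alternatives could not differ: a minimum log2 CPM of 1 removed no RP TSS peak, the lowest being 2.87 in MPP3 and 1.96 in MPP4 cells. Counts of genes with a TSS peak, 78 of 82, could not rise out of their 1.5-fold range. The level of other TSS peaks, with which the RP level is compared, moved past its interval in all 10 alternatives. Per kb it ran from 5.00 to 5.58 in MPP3 and from 5.00 to 5.51 in MPP4 cells, while the RP median ran from 5.97 to 6.07 and from 5.83 to 5.94. Without correction for length, the median RP TSS peak had 4.99 log2 CPM in MPP3 and 4.66 in MPP4 cells, and other TSS peaks 3.78 and 3.70, which is a different unit. Subtracting the median of all shared TSS peaks brought the MPP4 minus MPP3 median to -0.035. Searching whole MPP3 TSS peaks, which are longer, put the GC box at 79.5%, NRF1 at 23.1%, Myc E-boxes at 25.6%, EBF1 at 14.1% and E2A-type E-boxes at 25.6%. For whole peaks a share of other genes is given only for EBF1. From 100 bases before to 100 after the start, EBF1 was at 0% and E2A-type E-boxes at 6.10%, and median GC content was 60.0%. In all promoters these were 5.20%, 24.4% and 60.0%, and in those with a peak 5.77%, 22.1% and 65.0%. The pyrimidine tract was at 45.1% within 10 bases of the start and at 22.6% with RefSeq starts.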
